A study of Mus musculus with 23 samples.

Results

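The genes described here are ATF4, the enzymes that make serine, glycine and one-carbon units, other enzymes and transporters of amino acid supply, and transcription factors and regulators that act with ATF4. They are the 35 rows of the deposited count table, out of 24917 gene loci, whose gene symbol equals one of 35 names, and this rule uses no measured value. Each of the 35 genes had counts in the samples and passed the filter on low counts in each main fit. A stricter filter used as an alternative removed Trib3 over both batches.

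RNA was sequenced from the epithelium of the whole colon, released with EDTA, of male C57BL/6 mice (C57BL/6J in the study's methods) that were placed on a diet at 6 weeks of age and kept on it for 43 weeks. Ribosomal RNA was depleted rather than poly(A) RNA selected. The samples carry the labels LF, HF and HFLF and a label of batch 1 or batch 2, and what the batches stand for is not given in the sources used here. LF mice were fed a diet of 10% fat throughout and HF mice a diet of 60% fat throughout, with lard as the source of fat. HFLF mice received the 60% fat diet in the first 15 weeks and the 10% fat diet in the remaining 28 weeks, and the study calls them formerly obese. No group carries a transgene or a deletion by its labels. Batch 1 holds 4 LF, 3 HF and 4 HFLF samples and batch 2 holds 4 LF, 3 HF and 5 HFLF samples, and no source used here says whether 1 mouse could have given a sample to each batch. The comparisons ask how these genes differed in obese mice and whether they did so in formerly obese mice.

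ATF4 is a transcription factor whose protein is made when the initiation factor eIF2 is phosphorylated, for instance when amino acids run short or when misfolded proteins build up in the endoplasmic reticulum, a state called the integrated stress response. ATF4 is controlled in good part through translation of its mRNA, and with C/EBP partners it binds a composite element in genes for amino acid synthesis, transport and tRNA charging. The serine pathway draws carbon from glycolysis, and serine supplies glycine and, through mitochondrial folate enzymes, the one-carbon units that dividing cells such as those of colonic crypts use for nucleotide synthesis.

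Levels are given as CPM, which are reads on a gene as a share of the TMM-scaled library, times 1000000, in the order of the sample numbers. CPM are not divided by gene length, so levels were not compared between genes. A gene was called where the Benjamini-Hochberg adjusted p of edgeR's quasi-likelihood test, over all genes tested, was under 0.05 and the fold change was above 1.2 in either direction. Differences are log2 fold changes with their SE. The comparisons of HF with LF, HFLF with LF and HFLF with HF share samples and are not independent of each other.

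The depth was 29189922 to 65320947 reads on genes per sample, where 3 counts correspond to 0.0459 to 0.103 CPM. Colonocyte markers summed to between 6661 and 15776 CPM and goblet cell markers to between 19336 and 48461 CPM in the 23 samples, while T cell markers summed to between 10.98 and 29.4 CPM. In such bulk samples, fewer cells of a type and less RNA per cell cannot be told apart. HF sample 3 of batch 1 stood apart. It held the highest level of its batch for 22 of the 35 genes and for 27.4% of all genes tested, and 15 of the 35 genes exceeded 2 times the LF mean of the batch there, against 3.18% of all genes. Its summed level was 2.15 times the LF mean for proliferation markers, 1.45 times for colonocyte markers, 0.712 times for goblet cell markers, 0.367 times for immediate early and heat shock genes and 0.155 times for fibroblast markers. Results between HF and the other diets over both batches, and counts within batch 1, are therefore given with and without this sample. In batch 2, HF sample 2 held the highest level for 11 of the 35 genes and for 23.2% of all genes tested.

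**Figure D1:**
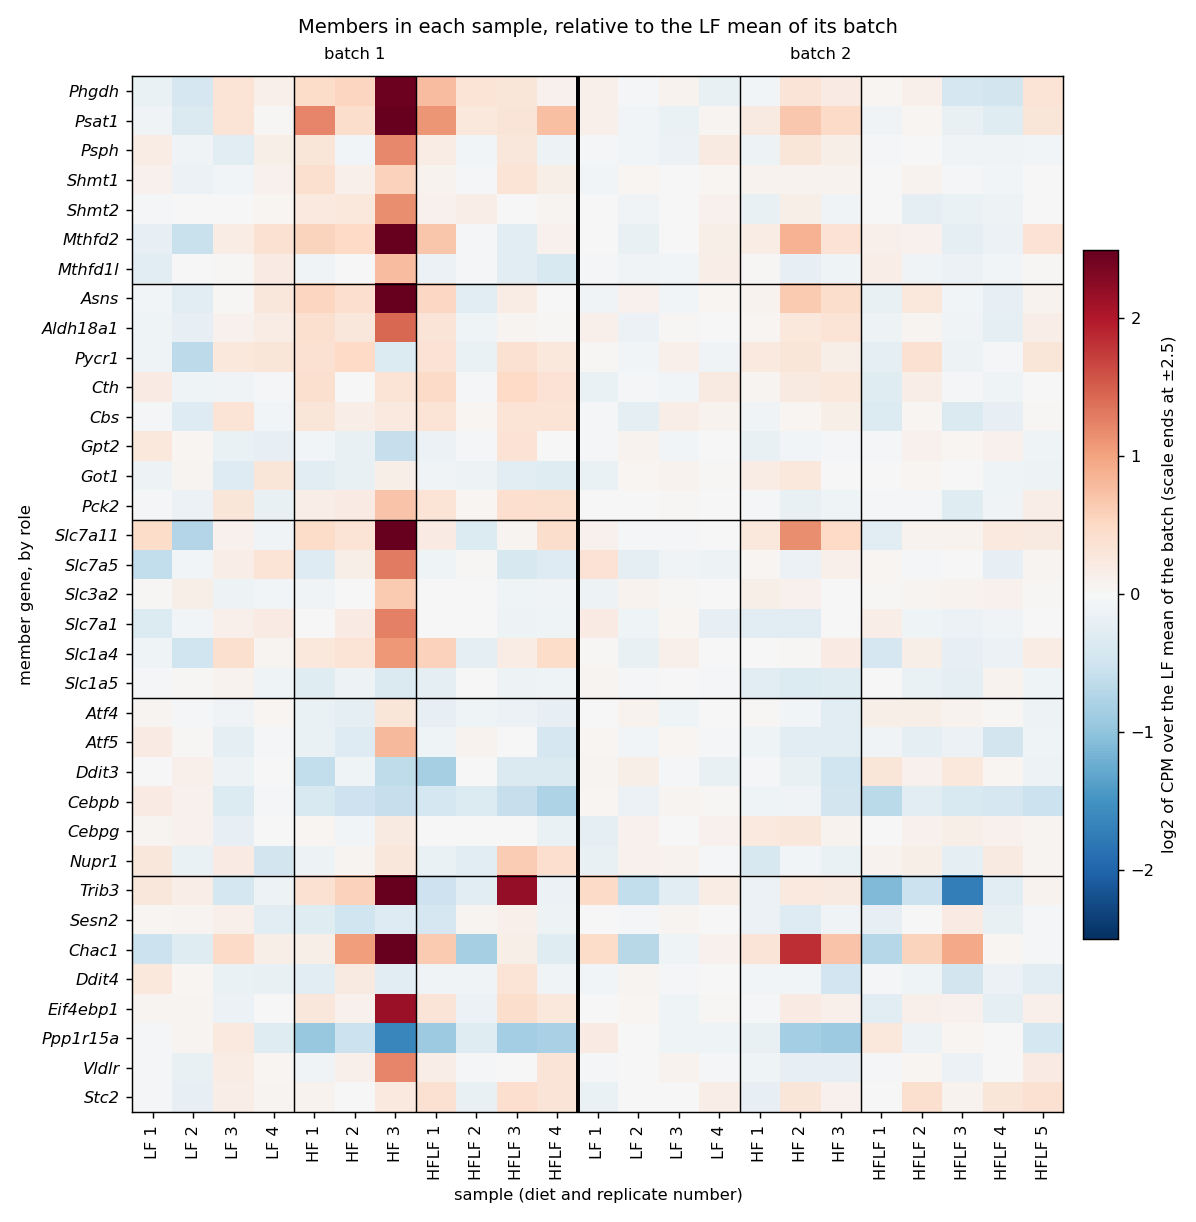
Heat map of the 35 genes (rows, by role) in the 23 samples (columns, by batch, diet and sample number), coloured by log2 of the CPM over the LF mean of the same batch. HF 3 of batch 1 is the column with the strongest red, where 15 of the 35 genes exceed 2 times the LF mean, while no HFLF sample has more than 1 such gene.

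Over both batches, with batch in the fit, genes of serine synthesis, asparagine and proline synthesis, cystine uptake and glutathione breakdown were higher in HF than in LF samples, while a glutamine transporter and 4 genes of the stress response were lower. Called higher were Phgdh, Psat1, Mthfd2, Asns, Aldh18a1, Slc7a11, Trib3, Chac1 and Eif4ebp1, which are 9 of 35 genes (25.7%) against 9.00% of all genes tested. Called lower were Slc1a5, Ddit3, Cebpb, Sesn2 and Ppp1r15a, which are 5 of 35 genes (14.3%) against 9.11% of all genes. The median log2 fold change of the 35 genes was 0.20, and that of all genes tested was -0.01. Without HF sample 3 of batch 1 these medians were 0.081 and 0.0038.

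Without HF sample 3 of batch 1 the fit over both batches called 6 of 35 genes higher (17.1%), against 5.97% of all genes. These were Psat1, Mthfd2, Asns, Aldh18a1, Slc7a11 and Chac1. It called 2 of 35 genes lower (5.71%), Cebpb and Ppp1r15a, against 5.04% of all genes, so that the share of lower calls was near that of all genes. Phgdh, Trib3, Eif4ebp1, Slc1a5, Ddit3 and Sesn2 were not called without this sample, and the fitted changes of Mthfd1l, Slc7a5, Slc7a1 and Vldlr turned from above to below 0. Leaving out LF sample 3 of batch 1 also moved the count by over 1.5 times, to 7 higher and 2 lower. Over all genes this fit called 1059 higher and 847 lower of 14344 tested. With all samples these were 1294 and 1311 of 14385.

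Within batch 1 edgeR called 0 of the 35 genes higher and 0 lower, against 0.00% and 0.00% of all genes, also without HF sample 3. At an unadjusted p under 0.05, 16 of the 35 genes were higher and 5 lower in HF samples, against 12.0% and 10.2% of all genes. Without HF sample 3 these counts were 6 higher and 4 lower, against 4.55% and 4.44% of all genes. DESeq2 called 4 of 35 genes higher and 1 lower in this batch, against 2.05% and 1.50% of all genes. It gave no adjusted p for Mthfd2, Slc7a11 and Trib3, so these could not be called. Voom with quality weights called 5 higher and 4 lower, against 8.04% and 8.75%. Leaving out HF sample 2 of batch 1, which leaves HF sample 3 as 1 of 2 samples, raised the edgeR count to 12 higher and 1 lower, against 5.23% and 4.02% of all genes.

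Within batch 2 edgeR called 1 gene higher, Slc7a11, against 3.03% of all genes, and 2 lower, Slc1a5 and Ppp1r15a, against 4.40%. The count moved when single libraries were left out. Without LF sample 1, 2 or 3 or HF sample 2 or 3 of batch 2 the count was 0. Calls over all genes then fell from 1069 of 14377 to 49, 336, 41, 15 and 49. Without LF sample 4 or HF sample 1 the count was 6, with 2560 and 802 calls over all genes. It was 5 without HFLF sample 1, with 1478 over all genes. The values of all HF samples lay above those of all LF samples in each batch for 3 genes, Psat1, Mthfd2 and Shmt1, against 2.34% of the genes tested in both batches. They lay below in each batch for 3 genes, Slc1a5, Sesn2 and Ppp1r15a, against 2.50%.

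**Figure D2:**
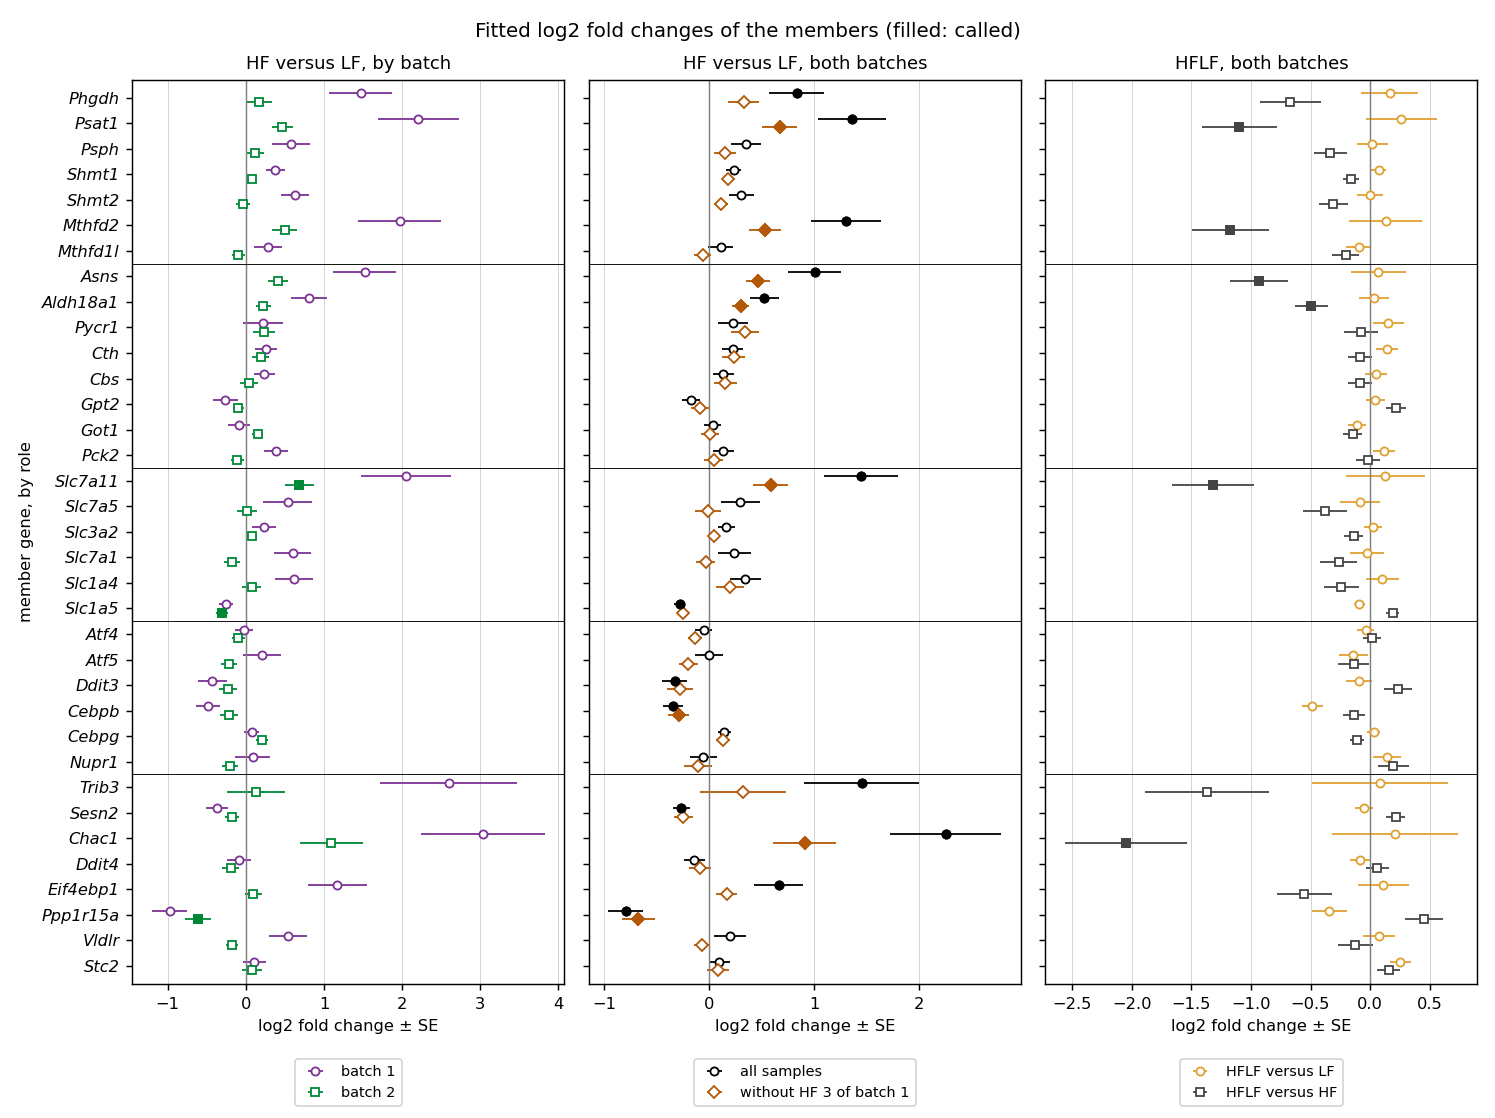
Fitted log2 fold changes with SE bars of the 35 genes by role: HF versus LF in each batch (left), HF versus LF over both batches with and without HF 3 of batch 1 (middle), and HFLF against LF and HF over both batches (right), with filled symbols for called genes. Without HF 3 the filled symbols fall from 14 to 8 and most positive changes shrink, and no change between HFLF and LF is filled.

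ATF4 with a C/EBP partner reads a composite element whose core was searched as TGATGNAA on both strands (TTNCATCA on the other), in RefSeq windows of GRCm38.p6, the assembly of mm10, that run from 250 bases before to 50 after each start site. Windows were found for 31 of the 35 genes and not for Cth, Slc7a5, Slc1a5 and Eif4ebp1. The core was in the window of 10 of these 31 genes (32.3%), against 4.51% of 27025 gene symbols. Among the 10545 genes tested over both batches that had a window it was in 2.71%. The 35 genes were listed for amino acid supply and the stress response of ATF4, so a higher share can follow from this choice and is no test. It was in 4 of the 8 genes called higher between HF and LF that had a window, in 0 of 4 called lower and in 6 of 19 not called. The last are Pycr1, Got1, Pck2, Slc1a4, Nupr1 and Vldlr, so that a match went with a call for some genes and without one for others. The 4 stretches below are those of the called genes, read on the strand of the gene with the core in capitals, and they lie at chr6:7693210-7693272 (minus strand) for Asns, chr3:50443614-50443719 (minus) for Slc7a11, chr2:119351009-119351096 (plus) for Chac1 and chr2:152344028-152344057 (minus) for Trib3.
Asns: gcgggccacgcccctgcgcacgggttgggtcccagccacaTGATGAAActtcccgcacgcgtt
Slc7a11: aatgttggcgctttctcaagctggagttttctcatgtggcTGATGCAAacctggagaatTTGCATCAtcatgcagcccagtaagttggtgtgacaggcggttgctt
Chac1: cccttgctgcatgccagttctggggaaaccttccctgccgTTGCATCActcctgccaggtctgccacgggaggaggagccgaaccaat
Trib3: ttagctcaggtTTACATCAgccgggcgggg
The first base of the core lies at position -23 in Asns, -66 and -47 in Slc7a11, -193 in Chac1 and 15 in Trib3, with the start site as position 1 and the base before it as -1. Slc7a11 carries the core on both strands, with the copies facing each other. A match of these letters is a description of the window, and binding was not measured.

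All 7 genes of serine, glycine and mitochondrial folate metabolism had higher fitted levels in HF than in LF samples over both batches, and 3 of the 7 were called. When HF 3 of batch 1 was left out, the change of Mthfd1l was below 0, and Psat1 and Mthfd2 were called. Phgdh, the dehydrogenase that opens the serine pathway (mm10 chr3:98313171-98339969), stood at 4.77, 3.99, 6.81 and 5.80 CPM in the LF samples of batch 1, at 7.36, 7.75 and 29.4 in the HF samples and at 9.16, 6.79, 6.59 and 5.78 in the HFLF samples. Batch 2 gave 11.6, 10.3, 11.3 and 9.32 CPM in LF, 10.1, 13.3 and 12.3 in HF and 11.03, 11.6, 7.89, 7.73 and 13.5 in HFLF samples. Every HF sample of batch 1 lay above every LF sample, HF 3 by far, whereas HF 1 of batch 2 lay within the LF range. Phgdh had a log2 fold change of 0.83 ± 0.26 over both batches (adjusted p = 0.0232) and 0.33 ± 0.15 without HF 3 of batch 1 (adjusted p = 0.106).

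Psat1, the aminotransferase of the next step (chr19:15905123-15925059), stood at 3.05, 2.54, 4.12 and 3.32 CPM in LF, 7.61, 4.44 and 33.1 in HF and 6.99, 3.91, 4.08 and 5.48 in HFLF samples of batch 1. In batch 2 the levels of Psat1 were 7.55, 6.55, 6.17 and 7.26 CPM in LF, 8.04, 10.98 and 9.59 in HF and 6.51, 7.12, 6.09, 5.56 and 8.44 in HFLF samples. HF and LF samples did not overlap in either batch, and HFLF 1 and 4 of batch 1 and HFLF 5 of batch 2 also stood above all LF samples of their batch. Psat1 had a log2 fold change of 1.36 ± 0.33 (adjusted p = 0.00761), and it was 0.67 ± 0.17 without HF 3 of batch 1 (adjusted p = 0.0175). The batches gave 2.21 ± 0.51 and 0.47 ± 0.14, neither of which was called.

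Mthfd2, a mitochondrial folate dehydrogenase of proliferating cells (chr6:83305704-83317604), stood at 4.30, 3.33, 5.61 and 6.45 CPM in LF, 7.23, 6.93 and 43.7 in HF and 7.96, 4.78, 4.10 and 5.31 in HFLF samples of batch 1. Its levels in batch 2 were 6.64, 5.76, 6.65 and 7.23 CPM in LF, 7.50, 11.96 and 8.49 in HF and 7.18, 7.06, 5.63, 5.97 and 8.42 in HFLF samples. HF lay above LF without overlap in both batches, but by a small gap to the highest LF sample in each. Mthfd2 had a log2 fold change of 1.30 ± 0.33 (adjusted p = 0.00968), and 0.53 ± 0.15 without HF 3 of batch 1 (adjusted p = 0.0279).

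Shmt1, the cytosolic enzyme that interconverts serine and glycine (chr11:60788897-60811265), stood at 58.1, 48.6, 51.4 and 57.96 CPM in LF, 71.1, 59.1 and 80.4 in HF and 57.7, 52.1, 68.5 and 59.9 in HFLF samples of batch 1. Shmt1 in batch 2 stood at 69.4, 74.8, 71.8 and 75.2 CPM in LF, 76.99, 77.1 and 76.9 in HF and 72.8, 76.9, 71.7, 69.5 and 73.1 in HFLF samples. The HF samples again lay above all LF samples in both batches, with HF levels of batch 2 close together. Its adjusted p over both batches was 0.0195, but the log2 fold change of 0.23 ± 0.07 stayed under the fold minimum, so Shmt1 was not called. It was 0.18 ± 0.06 without HF 3 of batch 1 (adjusted p = 0.0531).

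Psph, the phosphatase that releases serine, and Shmt2, the mitochondrial serine hydroxymethyltransferase, had log2 fold changes of 0.35 ± 0.14 (adjusted p = 0.0648) and 0.30 ± 0.12 (adjusted p = 0.0609) and were not called, and without HF 3 of batch 1 they had 0.15 ± 0.10 and 0.11 ± 0.06. The smallest change of the group was that of Mthfd1l, a mitochondrial formyl-tetrahydrofolate synthetase (chr10:3973075-4167081). Mthfd1l stood at 33.3, 40.1, 41.2 and 46.3 CPM in LF, 37.8, 40.2 and 68.7 in HF and 36.2, 38.9, 32.9 and 30.7 in HFLF samples of batch 1, and at 31.1, 30.1, 30.2 and 35.8 CPM in LF, 32.3, 27.7 and 29.4 in HF and 35.5, 30.01, 28.6, 30.5 and 32.2 in HFLF samples of batch 2. Apart from HF 3 of batch 1 its HF levels did not exceed those of the LF samples, and the log2 fold change was 0.11 ± 0.12 (adjusted p = 0.501) with this sample and -0.06 ± 0.08 (adjusted p = 0.569) without it.

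**Figure D3:**
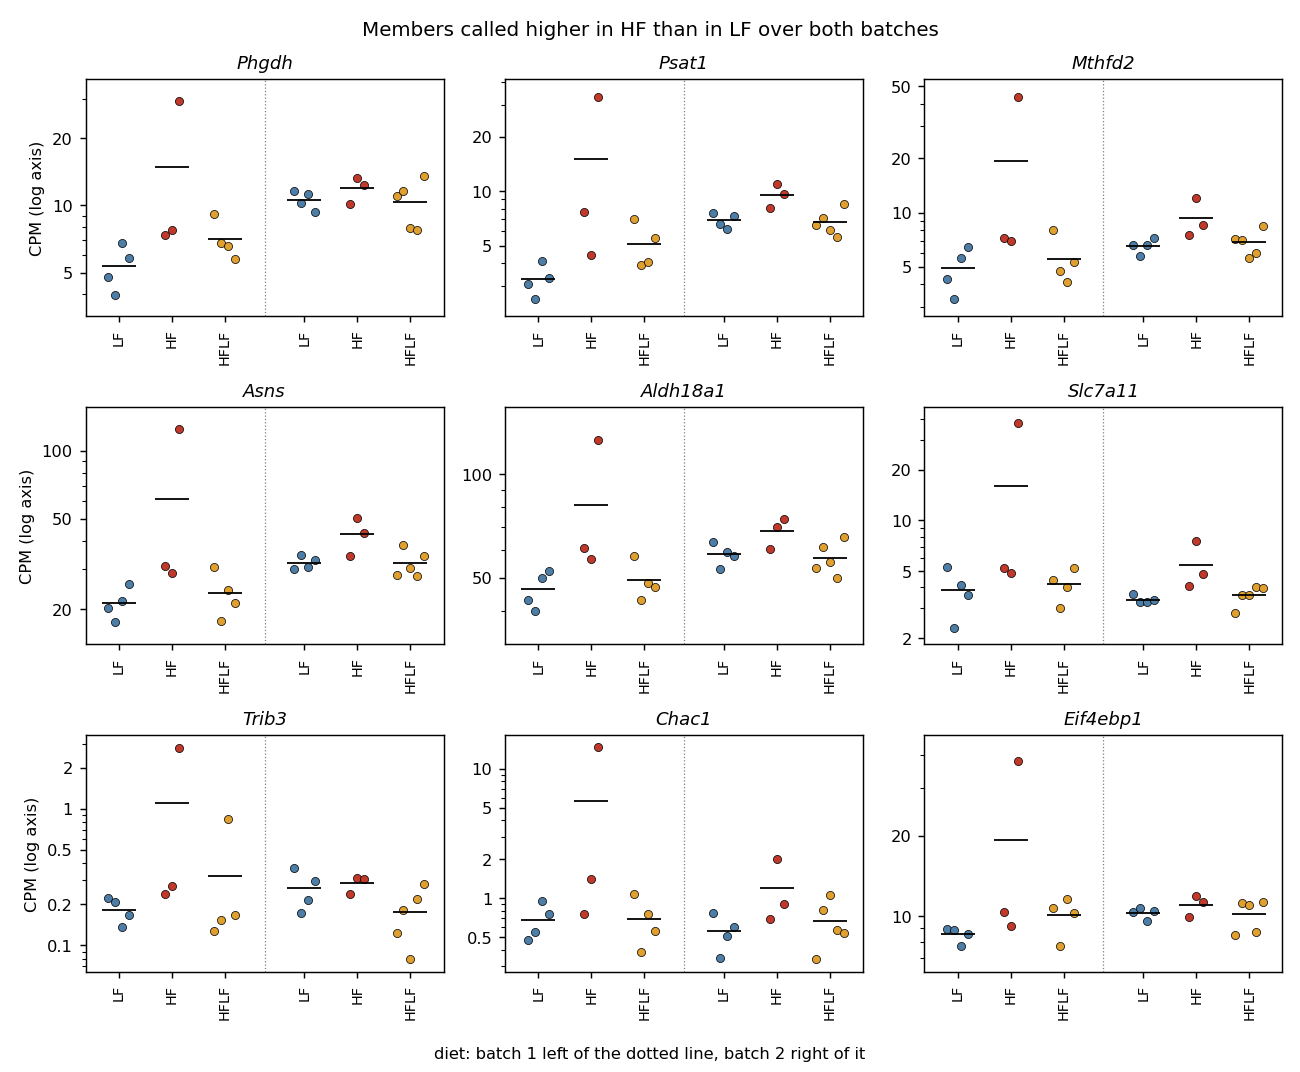
Levels (CPM, log axis) of the 9 genes called higher in HF than in LF over both batches, 1 point for each sample and a bar at the group mean, with batch 1 left of the dotted line in each panel. In each panel HF 3 is the highest point of batch 1, such as 33.1 CPM for Psat1, and the other HF points lie within or moderately above the LF range.

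Of the 8 other enzymes of amino acid supply, 2 were called, both higher. Asns, asparagine synthetase (chr6:7675171-7693182), whose promoter stretch is printed above, stood at 20.3, 17.6, 21.7 and 25.9 CPM in LF, 30.9, 28.8 and 124 in HF and 30.7, 17.7, 24.3 and 21.3 in HFLF samples of batch 1. For batch 2 the Asns levels were 30.03, 34.7, 30.7 and 33.03 CPM in LF, 34.3, 50.6 and 43.5 in HF and 28.2, 38.3, 30.4, 27.9 and 34.3 in HFLF samples. All HF samples exceeded the LF samples in batch 1, and in batch 2 HF 2 and HF 3 did while HF 1 lay within the LF range. Asns had a log2 fold change of 1.00 ± 0.25 (adjusted p = 0.00888) and, without HF 3 of batch 1, 0.47 ± 0.12 (adjusted p = 0.0175).

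Aldh18a1, which makes the precursor of proline from glutamate (chr19:40550257-40588463), stood at 42.9, 40.005, 49.9 and 52.3 CPM in LF, 61.1, 56.7 and 125 in HF and 57.9, 42.9, 48.3 and 47.02 in HFLF samples of batch 1. In batch 2 Aldh18a1 had 63.6, 53.1, 59.4 and 57.7 CPM in LF, 60.6, 69.9 and 74.2 in HF and 53.3, 61.5, 55.3, 49.8 and 65.8 in HFLF samples. The pattern was that of Asns, with no overlap of HF and LF in batch 1 and HF 1 within the LF range in batch 2. Its log2 fold change was 0.53 ± 0.14 (adjusted p = 0.0109), and 0.30 ± 0.08 without HF 3 of batch 1 (adjusted p = 0.0229). Asns, Aldh18a1 and Psat1 were called higher, and Cebpb and Ppp1r15a lower, under all of the 33 alternative settings and left-out samples that were tried for this comparison.

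The other enzymes were not called in any fit. Pycr1, which completes proline synthesis, had a log2 fold change of 0.23 ± 0.14, and Cth and Cbs, the enzymes of transsulfuration, had 0.22 ± 0.10 and 0.13 ± 0.10. Got1, a cytosolic aspartate aminotransferase, had 0.03 ± 0.08 and Pck2, the mitochondrial phosphoenolpyruvate carboxykinase, had 0.13 ± 0.10. The fit without HF 3 of batch 1 gave 0.34 ± 0.13 for Pycr1, 0.23 ± 0.11 for Cth, 0.15 ± 0.11 for Cbs, 0.01 ± 0.09 for Got1 and 0.04 ± 0.09 for Pck2. Gpt2, a mitochondrial alanine aminotransferase (chr8:85492617-85527558), had the lowest fold change of the group. Gpt2 stood at 70.1, 60.7, 51.6 and 50.7 CPM in LF, 55.7, 50.9 and 39.2 in HF and 52.6, 56.7, 75.3 and 57.9 in HFLF samples of batch 1, and at 65.1, 72.3, 64.8 and 68.6 CPM in LF, 59.2, 64.9 and 66.1 in HF and 65.8, 73.4, 70.01, 72.6 and 62.7 in HFLF samples of batch 2. HF 3 held the lowest Gpt2 level of batch 1 and HF 1 that of batch 2, the groups otherwise overlapped, and the log2 fold change of -0.17 ± 0.09 did not pass (adjusted p = 0.132), nor did that of -0.09 ± 0.08 without HF 3 of batch 1 (adjusted p = 0.439).

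Among the 6 amino acid transporters, 1 was called higher and 1 lower. Slc7a11, the exchanger that imports cystine for glutathione (chr3:50364936-50443613), with the facing cores printed above, stood at 5.27, 2.30, 4.15 and 3.63 CPM in LF, 5.24, 4.89 and 37.7 in HF and 4.40, 3.01, 4.05 and 5.23 in HFLF samples of batch 1. Its batch 2 levels were 3.67, 3.26, 3.26 and 3.36 CPM in LF, 4.07, 7.54 and 4.80 in HF and 2.81, 3.59, 3.61, 4.01 and 3.97 in HFLF samples. In batch 1 HF 3 alone exceeded the LF range, whereas in batch 2 all HF samples stood above all LF and all HFLF samples. Slc7a11 had a log2 fold change of 1.45 ± 0.35 over both batches (adjusted p = 0.00807), 0.68 ± 0.18 in batch 2 (adjusted p = 0.0394) and 0.59 ± 0.17 over both without HF 3 of batch 1 (adjusted p = 0.0251).

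Slc1a5, a sodium-dependent importer of glutamine and other neutral amino acids (chr7:16781346-16798274), went the other way. It stood at 232, 240.3, 252 and 220.2 CPM in LF, 192, 217 and 183 in HF and 203, 233, 215 and 218 in HFLF samples of batch 1, and at 298, 273, 286 and 278 CPM in LF, 237, 224 and 229 in HF and 282, 252, 243, 301 and 265 in HFLF samples of batch 2. All HF samples lay below all LF samples in both batches, and in batch 2 also below all HFLF samples. Slc1a5 had a log2 fold change of -0.28 ± 0.05 (adjusted p = 0.00298). Without HF 3 of batch 1 it was -0.25 ± 0.05 (adjusted p = 0.0108), under the fold minimum.

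Slc7a5 and Slc3a2, the chains of a transporter of large neutral amino acids, had log2 fold changes of 0.29 ± 0.19 and 0.16 ± 0.08 and were not called. Slc7a1, which carries cationic amino acids, had 0.24 ± 0.16 and Slc1a4, which carries serine and alanine, had 0.34 ± 0.15. The changes of Slc7a5, Slc7a1 and Slc1a4 were between 0.54 and 0.61 in batch 1 and between -0.17 and 0.08 in batch 2. The changes in batch 1 were smaller without HF 3, at -0.07 ± 0.23 for Slc7a5, 0.11 ± 0.13 for Slc7a1 and 0.31 ± 0.23 for Slc1a4. Over both batches without HF 3 of batch 1 they had -0.01 ± 0.13, -0.03 ± 0.09 and 0.20 ± 0.13, and Slc3a2 had 0.05 ± 0.05.

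Of the 6 transcription factors, 2 were called over both batches, both lower. The mRNA of ATF4 itself, which is given for its place in the pathway and not by the rule for named genes, did not pass a test. Atf4 (chr15:80255184-80257545) stood at 223, 207, 199 and 218 CPM in LF, 188, 178 and 259 in HF and 182, 197, 190.3 and 183 in HFLF samples of batch 1. Atf4 levels in batch 2 were 249, 266, 229.7 and 251 CPM in LF, 253, 239 and 207 in HF and 277, 274, 266, 255 and 228 in HFLF samples. HF 3 held the highest level of batch 1 and the other HF samples lay below the LF samples there, while in batch 2 HF 3 held the lowest level. Atf4 had a log2 fold change of -0.06 ± 0.08 over both batches (adjusted p = 0.607), -0.02 ± 0.12 in batch 1 and -0.10 ± 0.08 in batch 2. Leaving out HF 3 of batch 1 gave -0.14 ± 0.06 over both batches (adjusted p = 0.12) and -0.20 ± 0.09 in batch 1 (adjusted p = 0.548), so that the sample moved the value without bringing it past the threshold. ATF4 protein was not measured.

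Cebpb, a C/EBP factor of epithelial differentiation and inflammation (chr2:167688915-167690432), stood at 14.6, 13.6, 10.01 and 12.3 CPM in LF, 9.75, 8.87 and 8.50 in HF and 9.36, 10.01, 8.50 and 7.41 in HFLF samples of batch 1. For Cebpb in batch 2, the levels were 9.54, 8.38, 9.64 and 9.43 CPM in LF, 8.54, 8.74 and 6.76 in HF and 5.81, 7.69, 7.07, 6.89 and 6.35 in HFLF samples. All HF samples of batch 1 and all HFLF samples of batch 2 lay below all LF samples, and the HFLF samples of batch 1 and the HF samples of batch 2 overlapped with LF. Cebpb had a log2 fold change of -0.34 ± 0.09 (adjusted p = 0.0124), and -0.29 ± 0.10 without HF 3 of batch 1 (adjusted p = 0.0448).

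Ddit3, the gene of CHOP, which is induced by ATF4 under lasting stress (chr10:127290793-127296288), stood at 17.6, 18.97, 16.03 and 17.3 CPM in LF, 11.5, 16.3 and 11.3 in HF and 9.89, 17.6, 13.6 and 13.5 in HFLF samples of batch 1. The corresponding levels of batch 2 were 19.5, 20.6, 18.1 and 16.4 CPM in LF, 18.2, 16.3 and 13.3 in HF and 22.9, 19.999, 22.4, 19.4 and 16.97 in HFLF samples. HF 1 and HF 3 of batch 1 and HF 2 and HF 3 of batch 2 lay below all LF samples of their batch, and the remaining HF samples lay within the LF range. Ddit3 had a log2 fold change of -0.33 ± 0.12 (adjusted p = 0.043), and Ddit3 was called in 20 of the 33 alternatives only, with -0.28 ± 0.13 without HF 3 of batch 1 (adjusted p = 0.115).

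Atf5, Nupr1 and Cebpg were not called. Cebpg, a partner of ATF4 on DNA (chr7:35046422-35056566), had the highest fold change of the factors. It stood at 129.9, 132, 108 and 125 CPM in LF, 127, 119 and 144 in HF and 124, 123, 123 and 109.7 in HFLF samples of batch 1, and at 89.5, 114, 107 and 115 CPM in LF, 126, 129 and 112 in HF and 106, 115, 117, 114 and 112 in HFLF samples of batch 2. The groups overlapped in both batches, and the log2 fold change of 0.14 ± 0.06 did not pass (adjusted p = 0.0904), nor did that of 0.13 ± 0.07 without HF 3 of batch 1 (adjusted p = 0.164). Atf5 had -0.00 ± 0.13 and Nupr1, a stress-induced chromatin protein, had -0.06 ± 0.13, each with a change above 0 in batch 1 and below 0 in batch 2. Both were below 0 in each batch once HF 3 of batch 1 was left out, with -0.22 ± 0.18 for Atf5 and -0.02 ± 0.25 for Nupr1 in batch 1 and -0.20 ± 0.09 (adjusted p = 0.119) and -0.11 ± 0.13 over both.

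**Figure D4:**
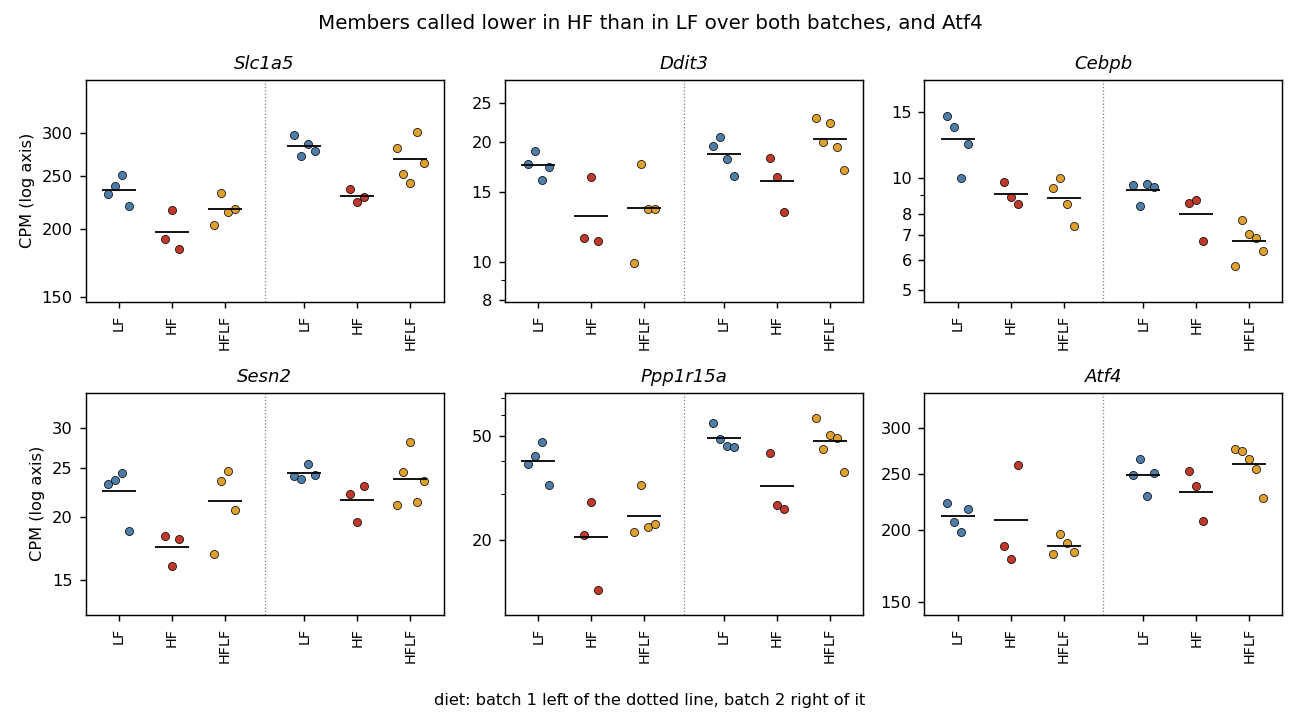
Levels (CPM, log axis) of the 5 genes called lower in HF than in LF over both batches, and of Atf4, 1 point for each sample and a bar at the group mean, with batch 1 left of the dotted line. Slc1a5, Sesn2 and Ppp1r15a show HF points below all LF points in both batches, and Atf4 shows overlapping groups with HF 3 of batch 1 at 259 CPM.

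The 8 regulators and further targets of the stress response held 3 genes called higher and 2 called lower. Chac1, an enzyme that breaks down glutathione (chr2:119351242-119354327), stood at 0.471, 0.550, 0.949 and 0.753 CPM in LF, 0.755, 1.40 and 14.7 in HF and 1.07, 0.383, 0.756 and 0.553 in HFLF samples of batch 1. Chac1 in batch 2 stood at 0.765, 0.343, 0.512 and 0.595 CPM in LF, 0.693, 2.0028 and 0.902 in HF and 0.336, 0.814, 1.06, 0.570 and 0.540 in HFLF samples. HF 2 and HF 3 exceeded all LF samples in both batches, and HF 1 lay within the LF range in both. With 2.25 ± 0.53 (adjusted p = 0.00693) its log2 fold change was the highest of the 35 genes, and it was 0.91 ± 0.30 without HF 3 of batch 1 (adjusted p = 0.0409).

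Trib3, a pseudokinase that restrains ATF4 and AKT (chr2:152337425-152344060), was near the detection floor. It stood at 0.222, 0.206, 0.136 and 0.167 CPM in LF, 0.237, 0.273 and 2.79 in HF and 0.127, 0.153, 0.837 and 0.166 in HFLF samples of batch 1, and at 0.367, 0.172, 0.215 and 0.298 CPM in LF, 0.238, 0.312 and 0.306 in HF and 0.122, 0.181, 0.0797, 0.217 and 0.281 in HFLF samples of batch 2. HF 3 of batch 1 was far above all others, the next was HFLF 3 of batch 1, and in batch 2 the groups overlapped. Trib3 had a log2 fold change of 1.45 ± 0.55 (adjusted p = 0.0488), but 0.32 ± 0.41 without HF 3 of batch 1 (adjusted p = 0.583).

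Eif4ebp1, a repressor of cap-dependent translation (chr8:27260327-27275656), stood at 8.96, 8.90, 7.73 and 8.59 CPM in LF, 10.4, 9.14 and 38.04 in HF and 10.7, 7.74, 11.6 and 10.3 in HFLF samples of batch 1. Batch 2 levels of Eif4ebp1 were 10.4, 10.7, 9.58 and 10.5 CPM in LF, 9.90, 11.9 and 11.2 in HF and 8.49, 11.2, 11.03, 8.74 and 11.3 in HFLF samples. HF and LF did not overlap in batch 1 and overlapped in batch 2. Eif4ebp1 had a log2 fold change of 0.66 ± 0.23 (adjusted p = 0.0378), and 0.16 ± 0.10 without HF 3 of batch 1 (adjusted p = 0.225).

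Ppp1r15a, which directs a phosphatase to eIF2 and so ends the response (chr7:45522917-45526268), stood at 39.1, 42.03, 47.5 and 32.5 CPM in LF, 20.9, 27.9 and 12.9 in HF and 21.4, 32.6, 22.4 and 22.98 in HFLF samples of batch 1. In batch 2, Ppp1r15a stood at 56.1, 48.9, 45.8 and 45.2 CPM in LF, 42.9, 27.2 and 26.3 in HF and 58.6, 44.6, 50.4, 48.99 and 36.3 in HFLF samples. Every HF sample lay below every LF sample in both batches. Ppp1r15a had a log2 fold change of -0.80 ± 0.16 over both batches (adjusted p = 0.00441), -0.61 ± 0.17 in batch 2 (adjusted p = 0.0425) and -0.67 ± 0.16 over both without HF 3 of batch 1 (adjusted p = 0.0149).

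Sesn2, a leucine sensor that restrains mTORC1 (chr4:132492807-132510456), stood at 23.2, 23.6, 24.4 and 18.8 CPM in LF, 18.4, 15.98 and 18.03 in HF and 16.9, 23.5, 24.7 and 20.7 in HFLF samples of batch 1, and at 24.1, 23.7, 25.5 and 24.2 CPM in LF, 22.1, 19.6 and 22.95 in HF and 21.1, 24.6, 28.1, 21.4 and 23.5 in HFLF samples of batch 2. HF lay below LF without overlap in both batches. Sesn2 had a log2 fold change of -0.27 ± 0.08 (adjusted p = 0.0206), near the fold minimum, and Sesn2 was called in 13 of 33 alternatives. Without HF 3 of batch 1 it was -0.25 ± 0.09 (adjusted p = 0.0604). Ddit4, another inhibitor of mTORC1, the lipoprotein receptor Vldlr and the secreted glycoprotein Stc2 were not called, at -0.14 ± 0.10, 0.20 ± 0.15 and 0.10 ± 0.10. They had -0.09 ± 0.10, -0.07 ± 0.07 and 0.08 ± 0.10 without HF 3 of batch 1.

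Immediate early and heat shock genes, which respond to the handling of tissue among other signals, were lower in HF samples along with Ppp1r15a, Ddit3, Sesn2 and Cebpb. All 10 genes of this list had counts, and 9 of the 10 were called lower in HF than in LF over both batches, with and without HF 3 of batch 1. Their summed level was 4528 to 4957 CPM in LF, 1729 to 3254 in HF and 2967 to 4396 in HFLF samples of batch 1. In batch 2 the list summed to 4902 to 5761 CPM in LF, 3138 to 4301 in HF and 4366 to 5288 in HFLF samples. HF and LF did not overlap in either batch, each with a two-sided exact permutation p of 0.0286, the smallest that 3 against 4 samples can give (0.305 after adjustment over the 32 tests of marker lists). The part of these genes in the lower members was not tested.

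Proliferation markers were higher in HF samples along with the called members, with fewer calls when HF 3 of batch 1 was left out. All 12 had counts, 9 of the 12 (75.0%) were called higher in HF than in LF over both batches and 0 lower, and without that sample 2 were called higher, Birc5 and Cdk1. They summed to 363 to 582 CPM in LF, 537 to 937 in HF and 404 to 679.7 in HFLF samples of batch 1, with HF 3 at the top. In batch 2 the range was 696 to 779 CPM in LF, 733 to 844 in HF and 579 to 862 in HFLF samples. HF and LF overlapped in both batches (two-sided exact permutation p of 0.0857 and 0.229). Fibroblast markers, all 6 with counts, summed to 15.7 to 27.3 CPM in LF and 2.88 to 28.9 in HF samples of batch 1, with HF 3 the lowest, and to 9.29 to 33.4 and 4.29 to 16.03 in batch 2. Summed levels of HF and LF samples also did not overlap for myeloid cell markers of batch 1 (36.97 to 40.7 CPM in HF and 31.3 to 34.3 in LF, exact permutation p of 0.0286), and in batch 2 for stem cell markers (485 to 521 and 558 to 644 CPM, 0.0571) and enteroendocrine cell markers (412 to 424 and 288 to 386 CPM, 0.0857). After adjustment over the 32 tests the lowest p was 0.305. Gene by gene over both batches, 1 of 7 stem cell markers tested was called higher in HF than in LF and 1 lower. For myeloid cell markers 1 of 7 was called higher and 0 lower, and for enteroendocrine cell markers 2 of 8 and 0. Of all genes 9.00% were called higher and 9.11% lower. The part of these lists in the results was not tested.

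**Figure D5:**
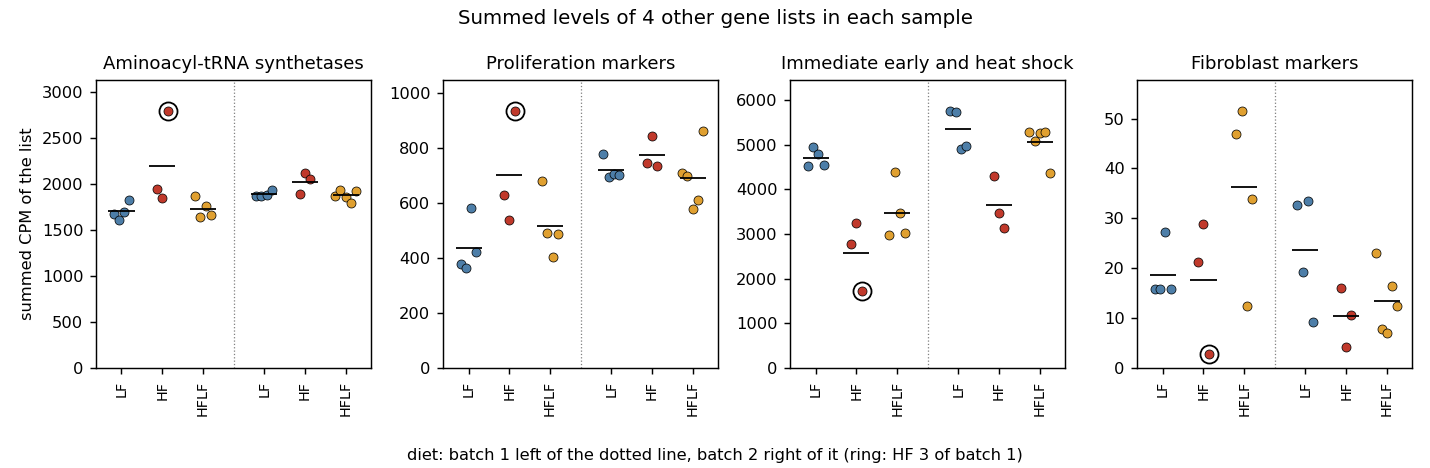
Summed CPM of aminoacyl-tRNA synthetases, proliferation markers, immediate early and heat shock genes and fibroblast markers, 1 point for each sample with a bar at the group mean, batch 1 left of the dotted line and HF 3 of batch 1 ringed. The ringed sample is highest of batch 1 for the synthetases (2801 CPM) and proliferation markers (937 CPM) and lowest of it for the other lists, and HF points lie below LF points for immediate early and heat shock genes in both batches.

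With all samples, the change between HF and LF was larger in batch 1 than in batch 2 for each gene called higher. The difference between the batches did not pass a test for any of the 35 genes. The median log2 fold change of the 35 genes was 0.28 in batch 1 and 0.08 in batch 2, and it was 0.11 in batch 1 without HF 3. The edgeR test of the interaction of batch and diet gave 0 of 35 genes at an adjusted p under 0.05, against 0.00% of all genes, with 0.688 as the lowest adjusted p. It gave 12 of 35 genes at an unadjusted p under 0.05, against 6.56% of all genes. A fit without HF 3 of batch 1, chosen after the data were seen, gave 0 of 35 genes at an adjusted p under 0.05, against 0.00% of all genes, and 2 at an unadjusted p under 0.05, against 4.32%. For HFLF against LF the interaction gave 0 of 35 genes, against 0.00% of all genes, with a lowest adjusted p of 0.632, and 5 genes at an unadjusted p under 0.05, against 7.58%.

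Formerly obese mice were next compared with mice kept on the low-fat diet. edgeR called 0 of 35 genes higher and 0 lower between HFLF and LF samples in each fit, against 0.00% and 0.00% of all genes in batch 1, 0.00% and 0.00696% in batch 2 and 0.00% and 0.00% over both. At an unadjusted p under 0.05, 2 genes were higher and 2 lower in batch 1 (2.50% and 2.79% of all genes), 0 and 3 in batch 2 (2.15% and 2.50%) and 1 and 2 over both (1.92% and 2.19%). DESeq2 called 0 genes in batch 1 and 1 gene, Cebpb, lower in batch 2 (0.0835% of all genes) and over both batches (0.0417%), and voom called 0, 0 and 1, again Cebpb (0.0209%). The log2 fold change of Cebpb was -0.52 ± 0.14 in batch 1, -0.45 ± 0.10 in batch 2 and -0.48 ± 0.08 over both (edgeR adjusted p = 0.0883). Its levels are those given above, with every HFLF sample of batch 2 below every LF sample and HFLF 2 of batch 1 within the LF range. Without LF 3, HF 3 or HFLF 2 of batch 1 edgeR also called Cebpb lower over both batches.

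Genes that were higher in HF than in LF samples did not pass between HFLF and LF. That does not show a return to LF levels, and the SE below, apart from that of batch 2, come from fits that include HF 3 of batch 1. Mean levels of Psat1 in LF and HFLF were 3.26 and 5.11 CPM in batch 1 and 6.88 and 6.74 in batch 2. Those of Phgdh were 5.34 and 7.08 CPM in batch 1 and 10.6 and 10.3 in batch 2. Over both batches the change between HFLF and LF was 0.26 ± 0.30 for Psat1, 0.07 ± 0.23 for Asns and 0.03 ± 0.13 for Aldh18a1. For Mthfd2 it was 0.13 ± 0.31, for Slc7a11 0.13 ± 0.33 and for Chac1 0.21 ± 0.53. Trib3 was 0.837 CPM in HFLF 3 of batch 1, over the other HFLF samples of that batch. Among the genes lower in HF, Ppp1r15a had -0.70 ± 0.21 between HFLF and LF in batch 1 (adjusted p = 0.792) and -0.04 ± 0.15 in batch 2, and Slc1a5 had -0.09 ± 0.05 over both batches.

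HFLF samples were also set against HF samples. Over both batches 6 of 35 genes (17.1%) were called lower in HFLF, against 4.90% of all genes, and edgeR called 0 of 35 higher, against 5.44%. The 6 were Psat1 (-1.10 ± 0.31, adjusted p = 0.0244), Mthfd2 (-1.17 ± 0.32, 0.0222), Asns (-0.93 ± 0.24, 0.019), Aldh18a1 (-0.49 ± 0.14, 0.022), Slc7a11 (-1.32 ± 0.34, 0.0187) and Chac1 (-2.05 ± 0.51, 0.0164). Without HF 3 of batch 1, Asns (-0.41 ± 0.11, adjusted p = 0.0425) and Aldh18a1 (-0.27 ± 0.08, adjusted p = 0.0489) were called lower, which are 2 of 35 genes (5.71%) against 1.88% of all genes, and 0 were called higher against 1.58%. Without HF 2 of batch 1 the fit called 11 genes lower and 2 higher, against 8.64% and 9.83% of all genes.

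Within batch 1 edgeR called 0 of 35 genes between HFLF and HF, against 0.00693% of all genes higher and 0.00% lower. DESeq2 and voom called 0 as well. At an unadjusted p under 0.05, 0 genes were higher and 13 lower in HFLF samples, against 4.81% and 6.04% of all genes. Without HF 3 these counts were 0 and 0, against 1.96% and 1.87% of all genes. Within batch 2, 3 genes were called lower (8.57%), against 5.61% of all genes, and 2 higher (5.71%), against 8.89%. The lower ones were Psat1 (-0.49 ± 0.13, adjusted p = 0.0258), Asns (-0.43 ± 0.12, 0.0277) and Slc7a11 (-0.59 ± 0.17, 0.0322), and the higher ones were Ddit3 (0.35 ± 0.12, 0.0466) and Ppp1r15a (0.57 ± 0.16, 0.0291). Slc1a5 had an adjusted p of 0.039 in batch 2 but a log2 fold change of 0.23 ± 0.07, under the fold minimum. The count of calls in batch 2 was 0 without HF 2, HF 3, HFLF 1 or HFLF 4. Calls over all genes fell from 2084 of 14377 to 11, 684, 880 and 957 in these fits.

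Other genes of the same pathways were counted by lists, which were also chosen with earlier results of these data known. Of 20 cytosolic aminoacyl-tRNA synthetases, which charge tRNAs and include many ATF4 targets, 9 (45.0%) were called between HF and LF samples over both batches, all higher in HF, where 9.00% of all genes were called higher and 9.11% lower. The changes with the largest size were those of Nars (0.42 ± 0.11, adjusted p = 0.00968), Rars (0.41 ± 0.08, 0.003), Farsb (0.38 ± 0.07, 0.00307) and Gars (0.38 ± 0.11, 0.0184). Without HF 3 of batch 1 4 were called, all higher (Dars, Farsb, Hars and Rars), against 5.97% of all genes higher and 5.04% lower. Within batch 2 it was 4 higher and 1 lower, against 3.03% and 4.40% of all genes. In batch 1 the synthetases summed to 1611 to 1833 CPM in LF, 1846 to 2801 in HF and 1638 to 1868 in HFLF samples, and in batch 2 to 1870.4 to 1936, 1893 to 2118 and 1797 to 1933. HF lay above LF without overlap in batch 1 and overlapped with it in batch 2. Between HFLF and HF samples 9 synthetases were called over both batches, all lower in HFLF, against 4.90% of all genes. Without HF 3 of batch 1 there were 3, again lower, against 1.88% of all genes.

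Of 20 further folate and one-carbon genes, 6 were called higher and 1 lower in HF than in LF samples over both batches. Aldh1l2, the mitochondrial formyl-tetrahydrofolate dehydrogenase, had a log2 fold change of 1.15 ± 0.31 (adjusted p = 0.0108), and Tyms, thymidylate synthase, had 0.39 ± 0.10 (0.00899). The fit that left out HF 3 of batch 1 called 2 genes of the list higher, with Aldh1l2 among them and Tyms not, and 1 lower. It called 5.97% of all genes higher and 5.04% lower.

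Of 16 genes of eIF2, its kinases and its exchange factor, 2 (12.5%) were called higher and 1 (6.25%) lower, shares near those of all genes. Eif2s1, the subunit of eIF2 that is phosphorylated, had 0.49 ± 0.11 (adjusted p = 0.00531), Eif2b1 had 0.31 ± 0.08 (0.0113) and Impact, which restrains the kinase GCN2, had -0.31 ± 0.10 (0.0215). Of 21 further genes of amino acid metabolism that were tested, 2 (9.52%) were called, both higher and again near the share of all genes, namely Arg2 (0.83 ± 0.18, adjusted p = 0.00531), a mitochondrial arginase, and Otc (0.45 ± 0.15, 0.0311), an enzyme of citrulline synthesis. Without HF 3 of batch 1 the calls were the same apart from Impact.

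Of 25 further amino acid transporters, 2 were called higher and 1 lower, which is not above the shares of all genes. Slc6a19, a luminal importer of neutral amino acids, had 1.22 ± 0.33 (adjusted p = 0.0115), Slc3a1 had 0.37 ± 0.13 (0.0384) and the lysosomal Slc36a1 had -0.45 ± 0.13 (0.0194), and Slc6a19 alone was called without HF 3 of batch 1. Of 17 further stress genes, 1 (5.88%) was called higher and 4 (23.5%) lower, with and without that sample. The lower ones were Gdf15 (-0.84 ± 0.16, adjusted p = 0.00298), a secreted stress hormone, Atf3 (-0.76 ± 0.16, 0.00528), Trib1 (-0.48 ± 0.09, 0.00239) and Gadd45b (-0.42 ± 0.12, 0.016). In batch 1 alone edgeR called 0 genes of these 6 lists in any comparison, where 0.00% to 0.00693% of all genes were called, and 14 synthetases and 7 folate genes had an unadjusted p under 0.05 in the direction of higher HF levels, against 12.0% of all genes. In HF 3 of batch 1 the synthetase sum was 1.64 times the LF mean against 1.14 and 1.08 times in the other HF samples of the batch, and without this sample 6 synthetases and 3 folate genes did so, against 4.55% of all genes. Between HFLF and LF samples 0 genes of the 6 lists were called in any fit, with 0 synthetases at an unadjusted p under 0.05 over both batches.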

How the data were processed

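Gene-level counts of reads from ribosome-depleted, stranded total RNA libraries of mouse colonic epithelium were used as the authors deposited them, without normalization, in 1 table of 23 samples. By the submitters' processing notes the authors used cutadapt 1.2.1, STAR 2.5 and featureCounts 1.5.0-p1 with mm10. How reads on several genes were treated and whether strand was used in counting is not given in the sources used here, so that overlapping, antisense and near-identical genes may share reads.

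Counts were fitted with edgeR 4.0.16 (limma 3.58.1, R 4.3.3), with TMM factors and filterByExpr, which kept 14428 genes in batch 1, 14377 in batch 2 and 14385 over both. The 3 diets were fitted together within each batch, and over both batches with batch as a covariate. A call needed an adjusted p (Benjamini-Hochberg, over all genes tested) under 0.05 and a fold change above 1.2. The fits were tested on simulated data. Summed levels of marker lists were compared between HF and LF within each batch by two-sided exact permutation tests. Floors cover counting error only, while the SE of a fold change also holds the spread between samples. The study's methods state that 5 mice entered each regimen, against 8 LF, 6 HF and 9 HFLF samples here. If those numbers hold, some mice gave more than 1 sample, and p-values measure the spread between samples that are not all separate mice. HFLF and LF are the labels' names, and samples were grouped by their titles.

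Values per sample are given for genes called in a fit, genes whose HF and LF samples did not overlap in both batches, and the highest and lowest fold change of each role, and from each pathway list at most 4 called genes with the largest change are named. Some genes that this rule would name are not reported here. The members and the lists were chosen with earlier results of these data known. Alternatives were RLE factors, other filters on low counts, DESeq2 1.42.0 with and without a prior, voom with quality weights, a replicate block, fits of the 2 diets compared, and leaving out each sample in turn.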

Additional observations from a re-analysis of the deposited data

Results flagged for a closer look

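Of the 140 groups of 4 or 5 samples formed by the 35 genes, 6 held a sample far from the others by Dixon's test at its 95% critical value, where chance gives about 1 in 20. Cbs stood at 81.2 CPM in HFLF 2 of batch 1, below 99.4 to 100.2 in the other HFLF samples. Cebpb stood at 8.38 CPM in LF 2 of batch 2, below 9.43 to 9.64. Cebpg stood at 109.7 CPM in HFLF 4 of batch 1, below 123 to 124. Trib3 stood at 0.837 CPM in HFLF 3 of batch 1, above 0.127 to 0.166. Ddit4 stood at 54.3 CPM in HFLF 3 of batch 1, above 40.04 to 40.3. Ppp1r15a stood at 32.6 CPM in HFLF 2 of batch 1, above 21.4 to 22.98. The HF groups hold 3 samples and were not tested in this way. No difference between the batches passed a test for any of these genes.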

How the results depend on the processing

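Log2 fold changes were recomputed for 136 results, which are those of all 35 genes between HF and LF over both batches and, in the other fits, of genes called, at an unadjusted p under 0.05 or with a printed value. Of 3518 such values, 3468 kept their direction. Without HF 3 of batch 1, 4 of all 35 changes between HF and LF took the opposite sign over both batches and 5 in batch 1, and between HFLF and HF 3 and 9 did. Between HF and LF over both batches the reversed values were -0.028 for Mthfd1l, -0.0094 for Got1, -0.018 for Slc7a1 and -0.092 for Vldlr with voom, and for Atf5 0.0027 with RLE factors, 0.011 with no filter, 0.0026 with DESeq2 and 0.0018 with 2 diets. Leaving out samples gave -0.064 to 0.18 for Mthfd1l, -0.013 to 0.40 for Slc7a5, -0.035 to 0.34 for Slc7a1, -0.073 to 0.27 for Vldlr, -0.20 to 0.062 for Atf5 and -0.11 to 0.0011 for Nupr1. In batch 1 voom gave -0.094 for Slc7a5 and -0.12 for Atf5, and leaving out samples gave -0.068 to 0.83 and -0.22 to 0.40 for these, -0.20 to 0.085 for Atf4 and -0.039 to 0.20 for Nupr1. In batch 2 Slc7a5 was -0.019 with the replicate block and -0.053 to 0.16 with samples left out. Between HFLF and LF, Ppp1r15a in batch 2 was 0.047 with the block and -0.12 to 0.046 with samples left out, and Aldh18a1 over both batches was -0.014 with same-numbered samples summed over the batches and -0.010 to 0.063 with samples left out. Between HFLF and HF in batch 1, Trib3 ranged from -2.27 to 0.32 and Eif4ebp1 from -1.27 to 0.039, above 0 without HF 3 only. The count of the 35 genes called between HF and LF in batch 1, 0 in the report, was 5 with DESeq2 and 7 with DESeq2 and a prior. It was 9 with voom, 1 with a replicate block and 0 to 13 with samples left out in turn. Of all 14428 genes tested, DESeq2, its prior, voom and the block called 512, 505, 2422 and 92. The fit with 13 calls called 1352 of 14620. In batch 2 the 3 calls became 5 with no filter on low counts, with a minimum of 1 CPM in 3 samples, with the block and with 2 diets. Over all genes these fits called 1053 of 19239, 1119 of 12652, 2080 of 14377 and 1108 of 14174. The count was 6 with DESeq2, its prior and voom, which called 1845, 1426 and 1991 of 14377, and 0 to 6 with samples left out. Over both batches the 14 calls became 8 with voom and 8 to 17 with samples left out (8 without HF 3 of batch 1). Voom called 4 of the 35 genes higher and 4 lower, against 1022 and 1332 of the 14385 genes tested. The fit with 17 calls had 13 higher and 4 lower, against 1836 and 1867 of 14452. Between HFLF and LF the 0 calls became 1 in batch 2 with DESeq2 or its prior, each of which called 16 of all 14377 genes. The count became 1 over both batches with DESeq2, its prior, voom or 2 diets. These called 6, 7 and 3 of all 14385 genes and 4 of 14034. Leaving out samples gave 0 in each batch and 0 to 1 over both. Between HFLF and HF, leaving out samples gave 0 in batch 1, 0 to 7 in batch 2 and 2 to 13 over both. The 5 calls of batch 2 became 8 with the block and 3 with 2 diets, against 2815 of 14377 and 1979 of 14180 genes. The 6 over both became 3 with voom, against 1517 of 14385. The cause of these moves was not tested. DESeq2 gave no adjusted p for Mthfd2, Slc7a11 and Trib3 between HF and the other diets in batch 1 and over both batches. It gave none for Mthfd2 and Slc7a11 between HFLF and LF over both batches. In batch 2 it gave none for Chac1 between HF and LF and, with the prior, between HFLF and HF. The DESeq2 counts hold such genes as not called.

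Same-numbered samples of different diets correlated with a median r of 0.137 in batch 1 (over 0.1 in 6 of 10 pairs). In batch 2 it was 0.0796 (4 of 10). Differently numbered samples gave -0.045 in batch 1 (9 of 30 pairs) and 0.00077 in batch 2 (11 of 37). The same-numbered medians were the higher ones, and whether the numbers pair samples was not tested. The main fits took no pairs. Across the batches, samples of the same diet had a median r of -0.047 with the same number and -0.0031 with other numbers. With a replicate block the fit over both batches called 11 genes between HF and LF and 7 between HFLF and HF. With 3 HF samples in each batch, 1 sample can decide a call. Trib3 lies close to the floor of 3 counts, and Chac1, also low, lies above it, from 0.336 CPM.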
